A study of Mus musculus with 6 samples.

Results

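The UDP-glucuronosyltransferase (UGT) genes of families 2 and 3 were followed in the livers of mice given carbon tetrachloride (CCl4). They were taken from the deposited count table by their gene symbols, 8 Ugt2 genes (Ugt2a3, Ugt2b1, Ugt2b5, Ugt2b34, Ugt2b35, Ugt2b36, Ugt2b37 and Ugt2b38) and 2 Ugt3 genes (Ugt3a1 and Ugt3a2), which makes 10 of 55802 rows. All 10 had a row, and all 10 were among the 15579 genes that passed the filter on low counts. The study compared liver RNA of wild-type C57BL/6 mice in 2 groups, mice treated with CCl4, a solvent that hepatocytes turn into a reactive radical, and mice treated with oil as controls, with 3 libraries in each. All mice shared strain and genotype, and the labels give no dose, duration, age or sex. Whether each library is a different animal is not stated either, and the p-values below reflect only how far these libraries lie apart, a spread that may be technical.

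UGT enzymes sit in the membrane of the endoplasmic reticulum and join a sugar to a small lipid-soluble molecule, which makes it more soluble in water and ready for export into bile or blood. The UGT2 enzymes take glucuronic acid from UDP-glucuronic acid and act on steroids, bile acids, fatty acids and many drugs. UGT3 enzymes differ in their sugar: human UGT3A1 uses UDP-N-acetylglucosamine. The liver is a main site of UGT2 expression.

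In GENCODE M21 the 8 Ugt2 genes lie in a row on chromosome 5, in the order Ugt2b34, Ugt2b1, Ugt2b35, Ugt2b36, Ugt2b5, Ugt2b37, Ugt2a3 and Ugt2b38, and the 2 Ugt3 genes are neighbours on chromosome 15. They are close paralogs. The coding sequence of Ugt2b5 was 97% identical to that of Ugt2b38 and 94.7% identical to that of Ugt2b37, and Ugt3a1 and Ugt3a2 were 93.2% identical. Among the Ugt2b genes, Ugt2b1 and Ugt2b34 stood further away, sharing 74.7% identity with each other and 73.3% and 72% with Ugt2b5, and Ugt2a3 shared 66.3% with Ugt2b5. Of the 100-base stretches of the Ugt2b5 transcript, 24.7% also occurred in a transcript of another gene, and so did 24.2% of those of Ugt2b38. At this length Ugt2b1, Ugt2b35, Ugt2b36, Ugt3a1 and Ugt3a2 shared none. Of 50-base stretches, 41.7% were shared for Ugt2b5, 37.4% for Ugt2b38, 18.3% for Ugt2b37, 9.38% for Ugt3a1 and 9.39% for Ugt3a2. For the rest it was 4.55% or less. The treatment of reads matching several genes was not given in the sources used here. The separate values of Ugt2b5, Ugt2b37 and Ugt2b38 are therefore less certain than those of the others.

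RefSeq gives a promoter window for 9 of the 10 genes (build GRCm38.p6). The last 120 bases before the start are shown for 5 Ugt2b genes that span the range of responses described below. All are on the minus strand of chromosome 5, at chr5:87424204-87424323 for Ugt2b38, chr5:86926504-86926623 for Ugt2b1, chr5:87140341-87140460 for Ugt2b5, chr5:86906938-86907057 for Ugt2b34 and chr5:87092556-87092675 for Ugt2b36. The capitals mark the letters GTTA and TTAAC with a gap of 4 bases between them, a pattern that most of the windows share.
Ugt2b38: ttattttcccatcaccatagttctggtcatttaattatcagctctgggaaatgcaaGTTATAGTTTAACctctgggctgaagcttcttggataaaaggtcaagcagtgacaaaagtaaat
Ugt2b1: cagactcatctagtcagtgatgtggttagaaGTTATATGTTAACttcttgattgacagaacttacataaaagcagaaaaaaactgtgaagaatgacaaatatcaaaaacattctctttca
Ugt2b5: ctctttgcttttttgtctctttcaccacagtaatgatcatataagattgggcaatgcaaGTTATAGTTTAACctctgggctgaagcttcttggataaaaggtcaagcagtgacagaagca
Ugt2b34: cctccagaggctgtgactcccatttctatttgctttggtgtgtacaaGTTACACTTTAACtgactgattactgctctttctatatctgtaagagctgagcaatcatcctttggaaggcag
Ugt2b36: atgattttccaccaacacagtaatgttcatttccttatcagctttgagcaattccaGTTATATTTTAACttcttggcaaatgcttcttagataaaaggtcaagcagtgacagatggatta

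The spaced pattern was searched on both strands of the 250 bases before the start and was found in 8 of the 9 windows, against 0.17% of all 32851 windows in the RefSeq table. It was written down after these windows had been read, so its share in them is a description. In the 7 Ugt2b windows it began between 61 and 89 bases before the start, at 61 for Ugt2b5, 64 for Ugt2b38 and Ugt2b36, 73 for Ugt2b34 and 89 for Ugt2b1. In Ugt3a1 it read GTTAAAAATTAAC and began 130 bases before the start. Ugt2a3 lacked the spaced pattern. The nuclear receptor core AGGTCA occurred in 5 of the 9 windows (Ugt2b5, Ugt2b35, Ugt2b36, Ugt2b37 and Ugt2b38) and in 14% of all windows. In Ugt2b5, Ugt2b36 and Ugt2b38 it began 22 to 25 bases before the start. The window of Ugt2b38 was 81.5% identical to that of Ugt2b5 and 84.8% identical to that of Ugt2b37. Windows of such close paralogs are not independent, so these shares are not like those over all windows. The STAT5 site TTCNNNGAA, searched likewise, was found in 0 of the 9 windows and in 7.02% of all windows. These matches are letters in a window and were not tested as binding sites.

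All 10 genes were lower in CCl4 livers. Each passed an adjusted p of 0.05 in edgeR's quasi-likelihood test over all genes, with adjusted p from 8.31e-07 to 0.00178, and for none did the groups overlap in CPM (counts scaled to the library size, here after TMM scaling). Of all 15579 genes tested, 41.3% were called, 20.1% lower and 21.2% higher, and the groups did not overlap in 26.4% with CCl4 lower and in 27.6% with CCl4 higher. The log2 fold changes (CCl4 over control) ran from -1.77 for Ugt2b38 to -0.33 for Ugt2b36, with a median of -0.84, beside a median of 0.00056 over all genes. Together the 10 genes held 0.291, 0.304 and 0.294% of all counts in the CCl4 libraries, against 0.437, 0.451 and 0.453% in the control libraries.

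The background split depended on the scaling: 3303 genes were called higher and 3124 lower as fitted, 4103 and 2177 with upper quartile scaling, and 4824 and 1676 with library size alone. Library size alone moved the median of all genes to a log2 fold change of 0.147, and there too each of the 10 genes was called lower (log2 fold changes of -1.62 to -0.18, adjusted p of 0.0276 or less). In bulk liver RNA, fewer hepatocytes and less of a transcript per hepatocyte cannot be told apart. Of 9 secreted hepatocyte proteins with a row, 4 were called higher and 2 lower, and their summed level ran from 112750 to 122534 CPM in CCl4 livers, against 106783 to 112448 CPM in control livers. Per 100 counts of these 9 genes, the Ugt2 and Ugt3 genes had 2.31, 2.48 and 2.43 counts in the CCl4 libraries, against 4.30, 4.39 and 4.28 in the control libraries. The 4 called higher were Hpx (means of 8870 CPM in CCl4 livers and 3551 CPM in control livers), Ahsg, Ambp and Ttr. The 2 called lower were Apob and Apoh. Changes of these genes enter the counts per 100, which therefore do not measure hepatocyte content alone. Alb, serum albumin, stood at 73971 ± 1664 CPM in CCl4 livers and 71800.2 ± 3609 CPM in control livers (mean ± SD, n = 3 each), a log2 fold change of 0.04 (SE 0.07, edgeR adjusted p = 0.655) that was called only with library size alone among the alternatives run (0.19, adjusted p = 0.0446).

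**Figure D1:**
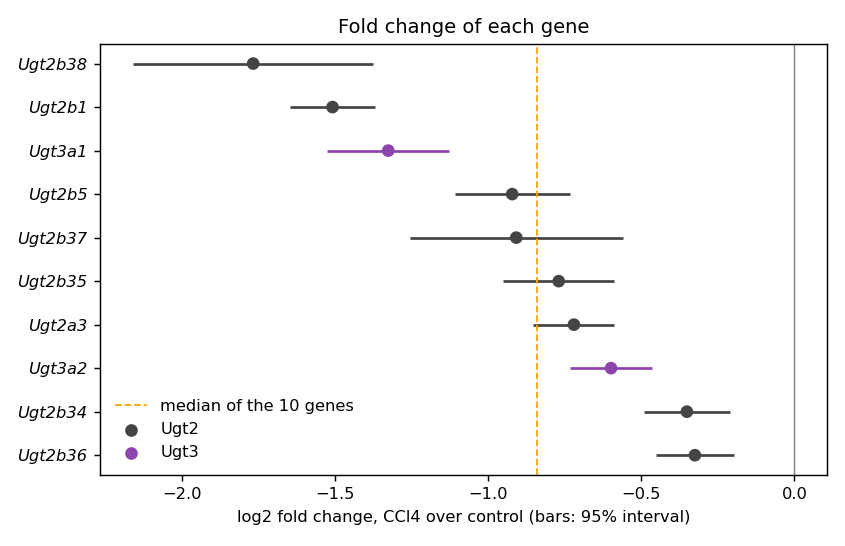
Log2 fold change of each gene, CCl4 over control, from edgeR with bars for the 95% interval; Ugt2 genes are grey and Ugt3 genes purple. All 10 intervals lie below 0, those of Ugt2b38, Ugt2b1 and Ugt3a1 below -1, and the dashed line is the median of -0.84.

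3 genes fell below a log2 fold change of -1, a size that 2.39% of all genes reached with a call. Ugt2b38 (ENSMUSG00000061906) stood at 20.5, 18.9 and 29.0 CPM in CCl4 livers, against 83.7, 71.6 and 78.0 CPM in control livers. Its highest CCl4 value, in replicate 3, was below its lowest control value. The log2 fold change was -1.77 (SE 0.16, edgeR adjusted p = 3.13e-04), a 3.41-fold fall (95% interval 2.60 to 4.47). Ugt2b1 (ENSMUSG00000035836) had 282, 308 and 291 CPM in CCl4 livers, against 859, 823 and 825 CPM in control livers. It had the smallest adjusted p of the 10, and its libraries lay close together in both groups. The log2 fold change of Ugt2b1 was -1.51 (SE 0.06, edgeR adjusted p = 8.31e-07). In mouse liver, Ugt2b1 and Ugt2b38 are known as genes that males express more than females.

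Ugt3a1 (ENSMUSG00000072664) was the third of this group, with 34.7, 32.5 and 27.0 CPM in CCl4 livers, against 75.4, 82.7 and 78.1 CPM in control livers. Its log2 fold change was -1.33 (SE 0.09, edgeR adjusted p = 1.03e-05), and CCl4 replicate 3 was the lowest library. Its neighbour Ugt3a2 (ENSMUSG00000049152) had 294, 270 and 290 CPM in CCl4 livers, against 420, 444 and 431 CPM in control livers (log2 fold change -0.60, SE 0.06, edgeR adjusted p = 7.32e-05). The gene with the higher level per length fell less. Within libraries, the log2 ratio of Ugt3a1 to Ugt3a2 in CPM was -3.19 ± 0.20 in CCl4 livers (SD, n = 3). In control livers it was -2.45 ± 0.03 (SD, n = 3). The difference was -0.73, with groups that did not overlap. In the exact two-sided permutation test p was 0.1, the smallest that 3 against 3 allows. Adjusted over the 45 pairs of the 10 genes it was 0.136. Reads shared by Ugt3a1 and Ugt3a2 could shift their ratio, which was not tested.

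5 genes lay between -1 and -0.5 in log2 fold change, among them Ugt3a2. Ugt2b5 (ENSMUSG00000054630), whose transcript had the highest level per length in control livers, stood at 549, 589 and 471 CPM in CCl4 livers, against 988, 1026 and 1035 CPM in control livers. CCl4 replicate 3 was again the lowest library, and the groups were far apart. The log2 fold change of Ugt2b5 was -0.92 (SE 0.08, edgeR adjusted p = 4.54e-05). Ugt2b37 (ENSMUSG00000057425) was the least abundant of the 10, with 106, 82 and 82 counts in CCl4 libraries, against 180, 151 and 141 counts in control libraries. That is 5.34, 4.06 and 4.03 CPM in CCl4 livers, against 9.58, 8.16 and 7.47 CPM in control livers, and its interval was the widest of this group (log2 fold change -0.91, 95% interval -1.26 to -0.56, edgeR adjusted p = 0.00138).

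Ugt2b35 (ENSMUSG00000035811) had 232, 252 and 230 CPM in CCl4 livers, against 359, 428 and 430 CPM in control livers (log2 fold change -0.77, SE 0.08, edgeR adjusted p = 9.64e-05). Ugt2a3 (ENSMUSG00000035780), the one tested gene of the 2A branch, had 182, 183 and 173 CPM in CCl4 livers, against 281, 302 and 303 CPM in control livers (log2 fold change -0.72, SE 0.06, edgeR adjusted p = 2.50e-05). The other 2A genes, Ugt2a1 and Ugt2a2, had 0 counts in all 6 libraries, which for counting error allows up to 3 counts in a library.

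2 genes fell least. Ugt2b34 (ENSMUSG00000029260) stood at 586, 603 and 599 CPM in CCl4 livers, against 726, 748 and 807 CPM in control livers (log2 fold change -0.35, SE 0.06, edgeR adjusted p = 0.00178). Ugt2b36 (ENSMUSG00000070704) stood at 647, 643 and 624 CPM in CCl4 livers, against 790, 792 and 816 CPM in control livers (log2 fold change -0.33, SE 0.06, edgeR adjusted p = 0.00158). Both groups of libraries were tight in both genes and did not overlap. Among all genes tested, the fold changes of Ugt2b34 and Ugt2b36 stood at percentiles 16.4 and 18.1 from the lowest, and those of the other 8 genes between percentiles 0.982 and 7.20.

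**Figure D2:**
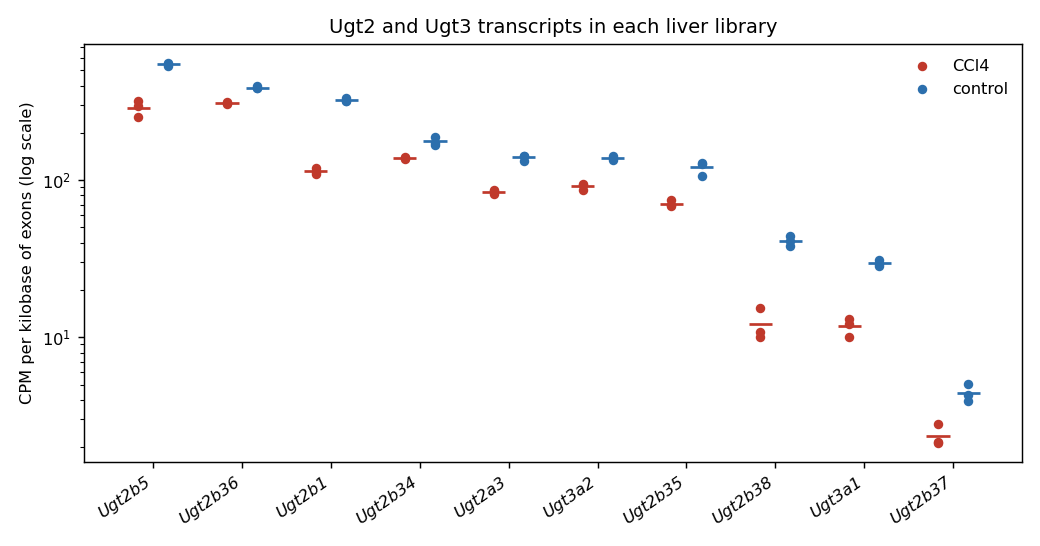
CPM per kilobase of exons (log scale) of each gene in every library, CCl4 in red on the left of each pair and control in blue on the right, with a line at the mean of each group. In all 10 genes the 3 CCl4 points lie below the 3 control points.

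Ratios between genes were set beside their position and likeness. Ugt2b1 and Ugt2b34 are neighbours on chromosome 5, and the log2 ratio of Ugt2b1 to Ugt2b34 in CPM was -1.02 ± 0.05 in CCl4 livers and 0.14 ± 0.11 in control livers (SD, n = 3 each). Ugt2b38 and Ugt2b5 are 97% identical in coding sequence and 81.5% identical in the 250 bases before the start. Yet the log2 ratio of Ugt2b38 to Ugt2b5 in CPM was -4.57 ± 0.49 in CCl4 livers and -3.71 ± 0.14 in control livers (SD, n = 3 each). In both pairs the groups did not overlap, and the exact two-sided permutation test gave p = 0.1, the smallest it can (0.136 adjusted over 45 pairs). Such a p does not pass 0.05, and reads shared by Ugt2b5 and Ugt2b38 could shift the second ratio, which was not tested. The counts of Ugt2b5, Ugt2b37 and Ugt2b38 were also added into a single row, so that the division of counted reads among them did not matter. The sum was 574, 612 and 504 CPM in CCl4 livers, against 1081, 1106 and 1121 CPM in control livers (log2 fold change -0.97, SE 0.08). Any reads left uncounted because they match several genes would be missing from it too. In control livers its mean was 1102 CPM, and that of Ugt2b5 alone 1016 CPM, so it says little about Ugt2b38.

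Ratios with small group differences were those of Ugt2b34 to Ugt2b36, Ugt2b5 to Ugt2b37 and Ugt2b35 to Ugt2a3, at -0.02, -0.01 and -0.05 on the log2 scale, and the groups overlapped in each. These pairs were picked by their values. With 3 libraries a group, small differences between these genes are not detectable.

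The order of the levels differed between the groups. In CPM per kilobase of exons, the order in CCl4 livers was Ugt2b36 (310 ± 5.86), Ugt2b5 (289 ± 32.1), Ugt2b34 (138 ± 2.05), Ugt2b1 (114 ± 5.09), Ugt3a2 (91.8 ± 4.05), Ugt2a3 (84.7 ± 2.75), Ugt2b35 (70.8 ± 3.68), Ugt2b38 (12.1 ± 2.88), Ugt3a1 (11.8 ± 1.49) and Ugt2b37 (2.36 ± 0.397), as mean ± SD of 3 libraries. Among neighbours in this order, Ugt2b36 overlapped with Ugt2b5 and Ugt2b38 with Ugt3a1. On the same scale in control livers the order was Ugt2b5 (547 ± 13.5), Ugt2b36 (388 ± 7.15), Ugt2b1 (325 ± 8.04), Ugt2b34 (176 ± 9.70), Ugt2a3 (140 ± 5.85), Ugt3a2 (139 ± 3.85), Ugt2b35 (121 ± 12.0), Ugt2b38 (41.1 ± 3.21), Ugt3a1 (29.5 ± 1.39) and Ugt2b37 (4.44 ± 0.568), and the neighbours that overlapped were Ugt2a3 and Ugt3a2. Ugt2b34 thus stood above Ugt2b1 in CCl4 livers and below it in control livers. The exon length joins all annotated isoforms of a gene. It exceeds the transcript with the longest coding sequence for Ugt2b34 (4312 and 3051 bases), Ugt3a2 (3102 and 2329), Ugt3a1 (2670 and 2244) and Ugt2b36 (2059 and 1888). By these shorter transcripts the levels per kilobase of these genes would be higher, and the order could differ.

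Of the summed Ugt2 counts, Ugt2b1 took 11.7 ± 0.389% in CCl4 livers and 19.9 ± 0.945% in control livers (SD, n = 3 each). Ugt2b36 took 25.5 ± 0.639% of these counts in CCl4 livers and 19.0 ± 0.217% in control livers, and Ugt2b34 took 23.8 ± 0.851% in CCl4 livers and 18.1 ± 0.573% in control livers. Ugt2b5 held 21.3 ± 1.66% of the counts in CCl4 livers and 24.2 ± 0.204% in control livers. In each of these 4 genes the shares did not overlap between the groups, with p = 0.1 in the exact two-sided permutation test and 0.143 adjusted over 10 shares. Ugt2b38 did likewise, with 0.915 ± 0.25% in CCl4 livers and 1.85 ± 0.173% in control livers. The shares of Ugt2a3, Ugt2b35 and Ugt2b37 overlapped. The summed Ugt2 counts themselves gave 2503, 2600 and 2421 CPM in CCl4 livers, against 4098, 4198 and 4304 CPM in control livers, a log2 fold change of -0.74 (SE 0.06), and the summed Ugt3 counts a log2 fold change of -0.69 (SE 0.06).

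**Figure D3:**
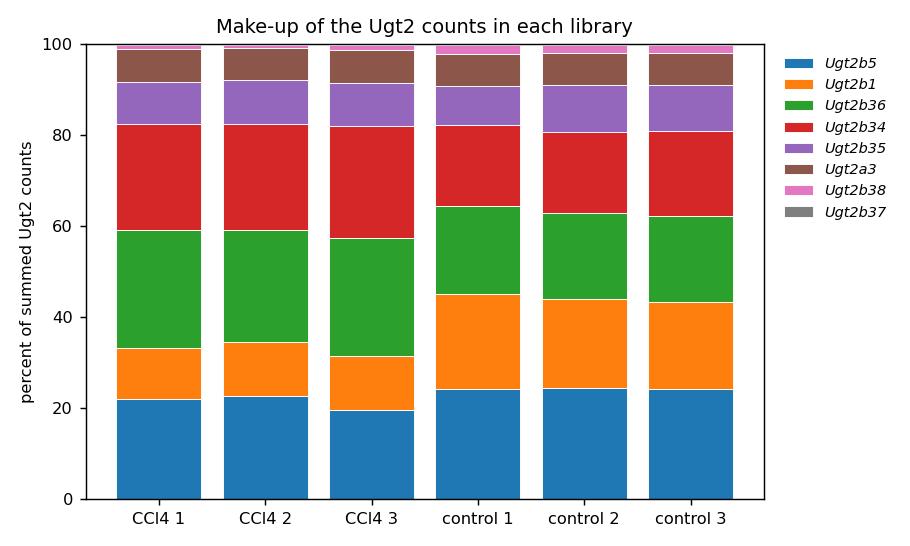
Percent of the summed Ugt2 counts taken by each Ugt2 gene in every library, the 3 CCl4 libraries on the left and the 3 control libraries on the right. Ugt2b1 takes a mean of 11.7% in CCl4 and 19.9% in control libraries, and Ugt2b36 and Ugt2b34 take more in CCl4 libraries.

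Of 12 listed Ugt1a, Ugt8a and Ugt2a genes, 6 were tested, and 3 of these were called lower and 0 higher, with a median log2 fold change of -0.44. Called lower were Ugt1a1, the bilirubin enzyme, and Ugt1a6a and Ugt1a6b, while Ugt1a7c was not called (log2 fold change 0.98, edgeR adjusted p = 0.0506). Ugt1a6a, Ugt1a6b and Ugt1a7c were chosen by their values. In this list 1 gene was called higher with upper quartile scaling, library size alone, the stricter filter, and without CCl4 replicate 3 or control replicate 2, and 2 were with no filter on low counts and without CCl4 replicate 2. The genes called lower numbered 2 with library size alone, with no filter, and without CCl4 replicate 1, control replicate 1 or control replicate 3. Ugt1a1 stood at 86.7, 73.6 and 104 CPM in CCl4 livers, against 122, 113 and 133 CPM in control livers (log2 fold change -0.48, SE 0.12, edgeR adjusted p = 0.0185). Ugt1a1 was no longer called with library size alone (edgeR adjusted p = 0.0843), with no filter on low counts (0.0539) or without CCl4 replicate 1 (0.0604), control replicate 1 (0.0503) or control replicate 3 (0.0625). Ugt1a genes share all exons but the first, so their separate counts are uncertain.

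The genes of the sugar donor gave mixed calls. Of 7 genes of UDP-glucuronic acid supply and use, 1 was called higher and 2 lower (median log2 fold change of -0.0035), with 0 lower with library size alone and 1 lower with upper quartile scaling or without CCl4 replicate 1, CCl4 replicate 2, control replicate 1 or control replicate 3. Ugdh, which oxidizes UDP-glucose to UDP-glucuronic acid, had 188, 214 and 250 CPM in CCl4 livers, against 181, 227 and 201 CPM in control livers, and was not called (log2 fold change 0.10, SE 0.12, edgeR adjusted p = 0.550). Slc35d1, which carries the donor into the endoplasmic reticulum, stood at 182 ± 10.2 CPM in CCl4 livers and 182 ± 9.27 CPM in control livers (SD, n = 3 each; edgeR adjusted p = 0.972). Ugp2, which makes UDP-glucose, was called lower (log2 fold change -0.31, SE 0.10, edgeR adjusted p = 0.0286). The nucleotide sugar carrier Slc35d2 was called lower too (-0.32, adjusted p = 0.00642, and 0.0712 with library size alone). The phosphoglucomutase gene Pgm2 was called higher (1.15), at 9.94 ± 0.788 CPM in CCl4 livers and 4.49 ± 0.575 CPM in control livers. Pgm1, the more abundant phosphoglucomutase gene, was not called (log2 fold change -0.14, edgeR adjusted p = 0.115). Pgm1 stood at 179 ± 7.45 CPM in CCl4 livers and 197 ± 11.6 CPM in control livers (SD, n = 3 each). The call of Ugp2 was lost without CCl4 replicate 1 (edgeR adjusted p = 0.0963), CCl4 replicate 2 (0.0766), control replicate 1 (0.0872) or control replicate 3 (0.0964), and with upper quartile scaling (0.0810) or library size alone (0.216). Of 5 tested genes that take glucuronic acid to ascorbate or xylulose, 1 was called higher and 1 lower, with 3 lower without CCl4 replicate 3 and 2 lower with DESeq2, no filter on low counts or the replicate block. Gulo, the last enzyme of ascorbate synthesis in mice, had 337 ± 51.9 CPM in CCl4 livers and 497 ± 4.21 CPM in control livers (SD, n = 3 each; log2 fold change -0.56, edgeR adjusted p = 0.00178), and Cryl1 was called higher (0.36).

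Of 10 genes for the transport and cleavage of conjugates, 3 were called higher and 6 lower. Gusb, the β-glucuronidase that removes the sugar again, had 49.0, 54.5 and 47.3 CPM in CCl4 livers, against 25.4, 29.8 and 24.5 CPM in control livers (log2 fold change 0.92, SE 0.09, edgeR adjusted p = 5.31e-05). Gusb is a lysosomal enzyme that many cell types make. Of 7 macrophage markers, 6 were called higher and 0 lower, with a summed level of 676 to 770 CPM in CCl4 livers, against 252 to 314 CPM in control livers. Their part in the value of Gusb was not tested. The exporters Abcc2, on the bile side, and Abcc3, on the blood side, were called lower (log2 fold changes -0.44 and -0.43, edgeR adjusted p = 0.00173 and 0.00346). Abcc4, another blood-side exporter, was called higher (14.3 ± 4.79 CPM in CCl4 livers and 3.49 ± 0.602 CPM in control livers, SD, n = 3 each; log2 fold change 2.03, edgeR adjusted p = 8.54e-04), and the uptake carrier Slco1a1 was called lower (-4.56). Sulfation, which shares some substrates with glucuronidation, went both ways: of 14 listed genes 10 were tested, with 3 called higher and 4 lower. Sult2a8 had the largest fall of that list (log2 fold change -2.07, edgeR adjusted p = 1.36e-05). Of the tested genes, Sult1e1 had the largest rise (3.31, edgeR adjusted p = 0.0187). It had 0.706, 0.692 and 3.00 CPM in CCl4 livers, against 0.213, 0.108 and 0.106 CPM in control livers. Without CCl4 replicate 3, the highest library, the log2 fold change of Sult1e1 was 2.24, and its call was lost without control replicate 2 (0.0658) or control replicate 3 (0.0711). Among the sulfation genes not tested, Sult2a2 had 8, 9 and 1051 counts in CCl4 libraries, against 1, 1 and 2 in control libraries. Sult2a1, also not tested, had 2, 4 and 166 counts in CCl4 libraries, against 0, 0 and 0 in control libraries. In both, nearly all counts came from CCl4 replicate 3.

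Among 17 regulators of UGT and other liver genes, 9 were called lower and 1 higher, with a median log2 fold change of -0.30. The regulators called lower numbered 6 with library size alone or without CCl4 replicate 2, and those called higher 2 with library size alone or upper quartile scaling. Hnf4a stood at a log2 fold change of -0.19 (SE 0.07, edgeR adjusted p = 0.0517), and was called with no filter on low counts (0.0197), the replicate block (0.0372), DESeq2 (0.0329), limma-voom (0.0460) and without CCl4 replicate 1 (0.0414). The drug-sensing receptor genes Nr1i3 (CAR) and Nr1i2 (PXR) were called lower at log2 fold changes of -0.96 and -0.40 (edgeR adjusted p = 2.68e-05 and 5.69e-04), and Ppara, the fatty acid receptor, at -1.27 (adjusted p = 3.91e-06). Nfe2l2, which encodes the oxidative stress factor NRF2, was the regulator called higher (0.34, edgeR adjusted p = 0.00118). Of the growth hormone pathway that sets sex differences in mouse liver, Stat5b was called lower at -0.55 (SE 0.06, edgeR adjusted p = 1.76e-04), and so was the repressor Bcl6 at -2.29 (adjusted p = 0.0159). Bcl6 lost its call without any of the 3 CCl4 libraries (adjusted p of 0.0629 to 0.0725).

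Genes known to be higher in male than in female mouse liver were called lower in CCl4 livers in 9 of 9 cases, with a median log2 fold change of -3.62. Hsd3b5 had the largest fall of this list, at 1.32 ± 0.592 CPM in CCl4 livers and 285 ± 17.6 CPM in control livers (SD, n = 3 each; log2 fold change -7.74, edgeR adjusted p = 2.22e-06). Of 4 tested genes known to be higher in females, 3 were called higher, with Cyp2b9 at the top (5.57, edgeR adjusted p = 0.00237). The falls of Ugt2b1 and Ugt2b38, at -1.51 and -1.77, were within the range of the male-biased list (-7.74 to -1.35). By their estimates, the other 8 Ugt2 and Ugt3 genes fell less than any gene in it. Ugt3a1, at -1.33 (95% interval -1.53 to -1.13), was not separable from the smallest of these falls, at -1.35 (95% interval -1.96 to -0.75). A link between the values of the Ugt2 and Ugt3 genes and those of the sex-biased genes was not tested.

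Position in the lobule was set beside these values. Of 8 pericentral genes, those of hepatocytes around the central vein, 7 were called lower and 0 higher (median log2 fold change -1.77), with a summed level of 2283 to 3383 CPM in CCl4 livers, against 10298 to 11104 CPM in control livers. Glul, glutamine synthetase, stood at 106 ± 17.6 CPM in CCl4 livers and 1257 ± 68.1 CPM in control livers (SD, n = 3 each), and the carrier gene Slc1a2 had the largest called fall of the list (log2 fold change -5.57). Slc1a2 stood at 2.17, 1.98 and 8.99 CPM in CCl4 livers, against 196, 214 and 216 CPM in control livers, and without CCl4 replicate 3 its log2 fold change was -6.65. Of 8 periportal genes 3 were called lower and 1 higher, with a summed level of 9206 to 9515 CPM in CCl4 livers, against 10651 to 11138 CPM in control livers. Among the called periportal genes, Hsd17b13 had the largest rise (0.71) and Cps1 the largest fall (-0.24, edgeR adjusted p = 0.0211), while Pck1, at -1.01, was not called (edgeR adjusted p = 0.0849). Cps1 lost its call with upper quartile scaling (0.0989), library size alone (0.339) and without CCl4 replicate 1 (0.0636), CCl4 replicate 2 (0.102) or control replicate 3 (0.0818). The part of pericentral hepatocytes in the values of the Ugt2 and Ugt3 genes was not tested.

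Markers of other liver cells were counted in the same way. Of 8 stellate cell and myofibroblast markers 7 were called higher and 0 lower, with a summed level of 1026 to 1082 CPM in CCl4 livers, against 252 to 310 CPM in control livers. Of 5 bile duct markers 4 were higher and 0 lower (252 to 333 CPM in CCl4 livers, 50.3 to 93.6 CPM in control livers). Most of that sum was Spp1, with means of 262 CPM in CCl4 livers and 58.3 CPM in control livers. Krt7, Krt19, Epcam and Sox9 had means of 3.64, 4.43, 6.15 and 15.4 CPM in CCl4 livers. In control livers these were 0.909, 2.07, 2.05 and 8.11 CPM, and Sox9 was the marker not called. Of 5 lymphocyte and neutrophil markers 3 were called higher and 0 lower. Their summed level was 17.6 to 20.8 CPM in CCl4 livers, against 6.89 to 8.84 CPM in control livers. In it, S100a8 and S100a9 had means of 5.42 and 9.54 CPM in CCl4 livers, against 1.60 and 2.07 CPM in control livers. The 2 not called were Cd3e (log2 fold change -0.81, edgeR adjusted p = 0.0559) and Nkg7 (-0.10). Endothelial markers gave 0 higher and 1 lower of 5 (169 to 183 CPM in CCl4 livers, 172 to 180 CPM in control livers). The largest called rises, as log2 fold changes, were Trem2 in the macrophage list (4.96) and Col1a1 in the stellate cell list (3.83). In the bile duct list it was Spp1 (2.17) and in the lymphocyte and neutrophil list S100a9 (2.20). The cells that gave these rises were not tested. Among the secreted hepatocyte proteins the largest called changes were Hpx upward (1.32) and Apob downward (-0.36). The endothelial call, Kdr (-0.18, edgeR adjusted p = 0.0397), was lost with upper quartile scaling (0.255), library size alone (0.639), the stricter filter (0.0514), DESeq2 (0.109), and without CCl4 replicate 2 (0.116), CCl4 replicate 3 (0.101), control replicate 1 (0.0900) or control replicate 2 (0.0996). None of these markers was at 0, and their part in the values of the Ugt2 and Ugt3 genes was not tested.

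**Figure D4:**
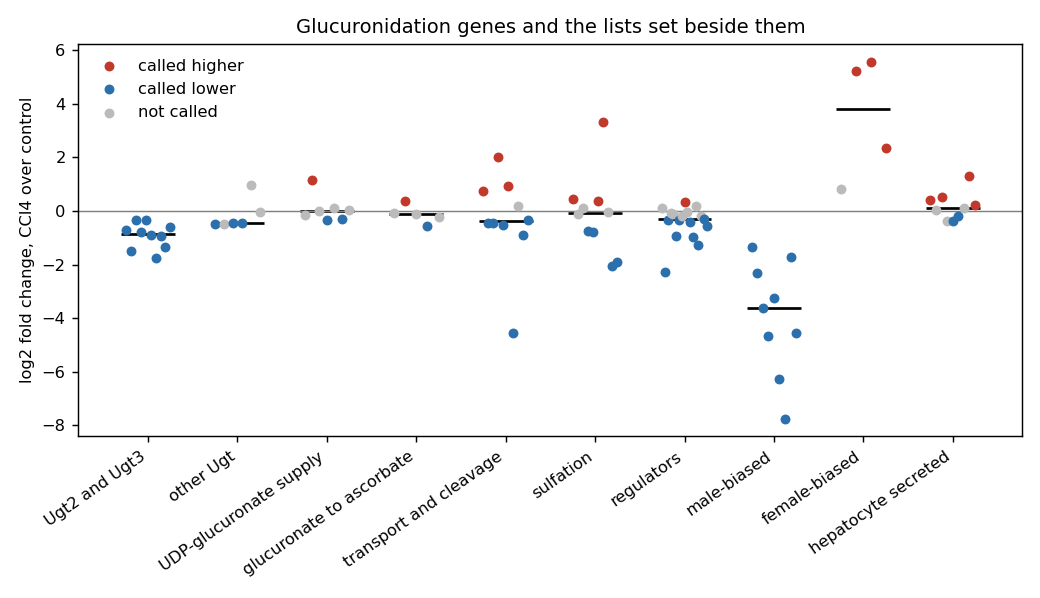
Log2 fold change, CCl4 over control, of every tested gene of the Ugt2 and Ugt3 group and of 9 lists set beside it; red (higher) and blue (lower) points passed an adjusted p of 0.05 in edgeR, grey points did not, and the black line is the median of a list. The Ugt2 and Ugt3 group has 10 points, all blue, while the supply list centres on 0 and the male-biased list has its median at -3.62.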

How the data were processed

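Liver RNA of 6 libraries was prepared with a SMARTER mRNA-Seq kit, per the labels. Adapters and low-quality reads were removed and the rest aligned with HISAT2, per the series' design text; featureCounts is named in the submitters' processing notes. Versions, build, annotation and strand setting: not given in the sources used here. What the authors deposited are raw counts, 18929972 to 20042731 per library, and floors cover counting error only. Symbols and exon lengths came from GENCODE M21 (52083 of 55359 Ensembl identifiers matched). 1 listed hepatocyte symbol, Tf, matched no row, which does not show that its gene is absent from the counts. Rows with other identifiers held 0.543 to 0.679% of counts.

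Counts were tested with edgeR 4.0.16 in R 4.3.3 (filterByExpr, TMM, robust glmQLFit and glmQLFTest, Benjamini-Hochberg over 15579 genes), a step checked on simulated counts. A standard error is the size of the log2 fold change over the root of F. Levels are CPM on TMM-scaled library sizes. Promoter windows are RefSeq's, and identities came from global alignments of coding sequences in Biopython 1.88, used in place of the planned protein alignments. Replicates were checked against each other and differed beyond sampling noise, the pairs with CCl4 replicate 3 most. The members, lists and tests were chosen with earlier results of these data known. Named were all 10 genes, 17 fixed genes of the pathway, of which 1 is not reported here, and, from each list, the called genes of largest rise and fall at 1 CPM or more. A few other list genes were picked by their values. Alternatives were other scalings and filters, DESeq2 1.42.0, limma-voom 3.58.1, a replicate block, and leaving out single libraries.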

Additional observations from a re-analysis of the deposited data

How the results depend on the processing

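All 10 genes kept their direction and their call in 15 of 15 alternatives each, with log2 fold changes of -1.98 to -0.18 and the largest adjusted p, 0.0276 for Ugt2b34, with library size alone. With the replicate number as a block, 10 genes were called lower and the summed Ugt2 counts stood at -0.74, so no call of the 10 genes changed. Same-numbered libraries deviated together at correlations of 0.00396 to 0.0635. With no differently numbered pairs beside them, these correlations cannot decide whether the numbers pair the samples. The summed Ugt2 counts ranged from -0.77 to -0.60 over the alternatives. The group difference in the Ugt2b35 share of Ugt2 counts, -0.172 percentage points, was 0.0106 on counts per kilobase and -0.613 to 0.0960 with 1 library left out. Slc35d1, near 0 throughout, stood at 0.083 with upper quartile scaling, 0.14 with library size alone, 0.010 with the stricter filter and -0.051 to 0.024 with 1 library left out, and Ugdh at -0.015 to 0.19 with 1 library left out. The cause of these moves was not tested. Over the 6 lists of UGT, supply, ascorbate, transport, sulfation and regulator genes, 25 calls were lower and 9 higher, with 19 to 29 lower and 8 to 12 higher over the alternatives. Depth limits Ugt2b37 most, at 82 to 180 counts per library.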
